A study of Mus musculus with 6 samples.

Results

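Apolipoproteins and the proteins that load them with lipid were examined as 10 genes in the mouse small intestine: Apob, Mttp, Apobec1, Apoa1, Apoa2, Apoa4, Apoc1, Apoc2, Apoc3 and Apoe. Every probe set whose single gene symbol in the platform annotation was 1 of these names was taken, which gave 11 probe sets for 9 genes, out of 8251 genes named on the array. No probe set carries the symbol Apoc3 alone, and that gene was skipped. Apoa2 and Apoe had 2 probe sets each and the other 7 genes had 1.

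The study set 3 Cftr null mice, CFTR(-/-), against 3 Cftr control mice, CFTR(+/+). All 6 were congenic on the black6 background, were 40 days old and had eaten Peptamen, a liquid peptide-based diet, from day 10, which per the labels keeps the gut from becoming obstructed. RNA of the whole small intestine of 1 mouse went on each 1-colour Affymetrix array, and each group held 2 males and 1 female (null replicate 2 and control replicate 3). The labels do not give the Cftr allele, and the tissue was not divided into regions or cell types. Values are scaled intensities in arbitrary units, which can be compared between mice for 1 probe set but not between probe sets. Cftr itself averaged 330.0 ± 36.6 in nulls and 940.4 ± 120.4 in controls (SD, n = 3 each) on the probe set that was bright enough to be tested.

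Enterocytes pack dietary triglyceride into chylomicrons. Each particle is built on 1 molecule of apolipoprotein B, to which the microsomal triglyceride transfer protein, encoded by Mttp, adds lipid in the endoplasmic reticulum. In the mouse and human intestine the enzyme encoded by Apobec1 edits the Apob mRNA so that the short form of the protein, apoB48, is made. The smaller apolipoproteins A-I, A-IV, C and E sit on the particle surface, where they stabilise it, activate or restrain lipoprotein lipase, or bind receptors.

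Of the 9 genes, 7 had a probe set above the level needed for testing, 109.7 in at least 3 of 6 arrays. In the null intestine 0 of 7 passed limma's test at an adjusted p under 0.05, against 3.0% of all 7601 probe sets tested (1.87% lower and 1.13% higher in nulls). At an unadjusted p under 0.05 there were 3, Apoa4, Apob and Mttp, all lower in nulls, a direction and level that 8.17% of all tested probe sets had (17.3% in either direction). Of the 7 genes, 6 had a fitted change below 0, against 45.7% of all tested probe sets, and their median log2 change was -0.43, against 0.03 for all. In 4 of the 7 genes every null mouse lay below every control mouse, where 10.8% of all tested probe sets did so (23.8% in either direction). These are descriptions of genes chosen with earlier results of these data known. Lower values were not particular to them. The 7 tested proximal small intestine markers had a median log2 change of -0.43, with 6 below 0. The 13 tested enterocyte and epithelial markers, a list that shares Lct and Fabp1 with the proximal one, had -0.24, with 9 below 0. The 95% confidence intervals of Apoa4, Apob and Mttp, not adjusted for the number of tests, lay below 0, and on simulated data the same fit called 55.9% of 2-fold changes, so a gene that did not pass is not shown to be unchanged. Fold changes are on the scale of log2(value + 11.7), and the pseudocount of 11.7 matters little at these levels.

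**Figure D1:**
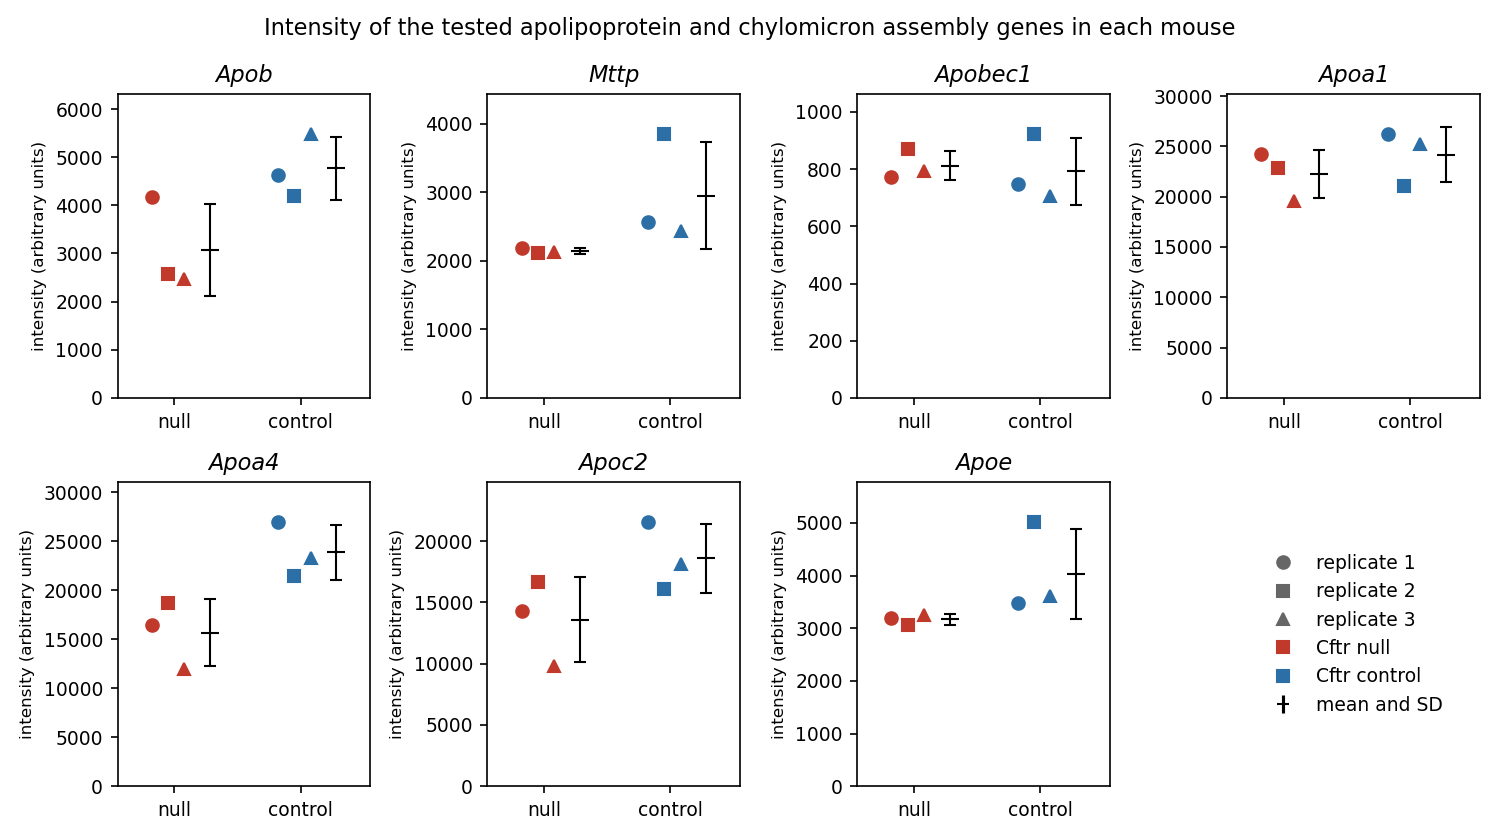
Intensity, in arbitrary units on axes that start at 0, of the 7 tested genes in each of the 3 null mice (red, left) and 3 control mice (blue, right), with the mean and SD of each group in black. Null and control mice do not overlap for Apob, Mttp, Apoa4 and Apoe, although for Apob the gap is narrow (4164.8 in null replicate 1, 4192.8 in control replicate 2).

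1 control mouse stood apart in the ileal gene Fabp6, in Hnf4g and in some other genes, and it bears on several values below. Fabp6, the ileal bile acid binding protein, read 880.2, 2158.5 and 1116.0 in null replicates 1 to 3, against 7441.1, 100.3 and 6098.7 in control replicates 1 to 3. Control replicate 2 was thus far below the other 5 mice in this ileal gene. In contrast Hnf4g, a nuclear receptor of the epithelium, was at 2495.6 in that mouse, between 550.4 and 613.2 in the other controls and between 414.8 and 849.7 in nulls. The other tested ileal markers were mixed in control replicate 2. Fgf15 (6.0, a dim gene) and Muc13 (9541.5) were lowest of all mice there. Cubn (3183.4), Slc51a (3287.7) and Mep1a (392.2) were lowest among controls but not among all mice. Nr1h4 (773.0) was highest among controls. Outside the ileal list, Gata4 (1420.3) and Gata6 (2359.6) were highest of all mice in control replicate 2, and Krt8 (8935.7) and Krt19 (7608.9) were lowest. Values without control replicate 2 are given beside each gene.

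Apob, the structural protein of the chylomicron, had 4164.8, 2577.9 and 2463.2 in null replicates 1 to 3, against 4625.1, 4192.8 and 5489.2 in control replicates 1 to 3. Null replicates 2 and 3 were far below all controls, whereas null replicate 1 lay just below the lowest control. Apob averaged 3068.6 ± 951.0 in nulls and 4769.0 ± 660.1 in controls (SD, n = 3 each), a log2 change of -0.67 (SE 0.21, 95% confidence interval -1.16 to -0.17, adjusted p = 0.160, limma). The interval runs from 1.13-fold to 2.24-fold lower. With this SE a log2 change of about 1.02 in size would have been needed to reach 0.00148, the largest unadjusted p that passed. Without null replicate 1 the log2 change was -0.91 (adjusted p = 0.0685), and without control replicate 2 it was -0.76.

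Mttp, the lipid loading protein, had 2189.0, 2115.7 and 2126.1 in null replicates 1 to 3, against 2567.0, 3853.3 and 2431.2 in control replicates 1 to 3. The 3 nulls were nearly equal, with a coefficient of variation of 1.85%, against 26.6% in controls, where control replicate 2 was high. Mttp averaged 2143.6 ± 39.7 in nulls and 2950.5 ± 784.8 in controls (SD, n = 3 each), a log2 change of -0.43 (SE 0.18, 95% confidence interval -0.84 to -0.02, adjusted p = 0.270, limma). Without control replicate 2 the log2 change was -0.22 (adjusted p = 0.346).

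Apobec1, the cytidine deaminase that edits Apob mRNA, had 773.3, 869.5 and 794.9 in null replicates 1 to 3, against 747.7, 924.0 and 705.1 in control replicates 1 to 3. The highest and the lowest of the 6 values were both controls, so the null mice lay inside the control range. Apobec1 averaged 812.6 ± 50.5 in nulls and 792.3 ± 116.1 in controls (SD, n = 3 each), a log2 change of 0.04 (SE 0.14, 95% confidence interval -0.27 to 0.36, adjusted p = 0.904, limma). The interval allows changes from 1.21-fold lower to 1.29-fold higher. Without control replicate 2 the log2 change was 0.16 (adjusted p = 0.577, limma). The sign turned without null replicate 2 (-0.01), without control replicate 3 (-0.03) and in males only (-0.08). An array probe set measures the level of the Apob transcript and not its edited share, which is not analysed here.

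Apoa4, an apolipoprotein made by enterocytes during fat absorption, had 16448.7, 18655.9 and 11913.9 in null replicates 1 to 3, against 26974.4, 21474.6 and 23241.5 in control replicates 1 to 3. All nulls lay below all controls, and null replicate 3 was the lowest of the 6. Apoa4 averaged 15672.8 ± 3437.3 in nulls and 23896.8 ± 2807.9 in controls (SD, n = 3 each), a log2 change of -0.63 (SE 0.18, 95% confidence interval -1.04 to -0.21, adjusted p = 0.122, limma). This was the smallest p of the 7 genes, at rank 522 of 7601. With this SE a log2 change of 0.86 in size would have been needed to pass. Without control replicate 2 the change was -0.70 and without null replicate 3 it was -0.44.

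Apoa1, the main protein of high density lipoprotein and also a chylomicron surface protein, had 24220.6, 22835.2 and 19591.0 in null replicates 1 to 3, against 26260.8, 21037.1 and 25223.4 in control replicates 1 to 3. The groups overlapped, since control replicate 2 was below null replicates 1 and 2. Apoa1 averaged 22215.6 ± 2376.2 in nulls and 24173.8 ± 2765.5 in controls (SD, n = 3 each), a log2 change of -0.12 (SE 0.13, 95% confidence interval -0.43 to 0.19, adjusted p = 0.683, limma). The change was -0.22 without control replicate 2, -0.06 without control replicate 1 and -0.03 without null replicate 3. Apoa1 was at 72.2% to 78.1% of the highest value of the array in nulls and at 82.8% to 85.9% in controls. Apoa4 was as bright in controls, at 77.9% to 87.7%, but at 43.9% to 59.8% in nulls. Whether probe sets this bright still read differences to scale was not tested, for Apoa1, for Apoa4 or for the difference between them.

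Apoc2, the cofactor that activates lipoprotein lipase, had 14271.3, 16689.2 and 9845.7 in null replicates 1 to 3, against 21574.3, 16064.3 and 18134.7 in control replicates 1 to 3. Null replicate 2 was above control replicate 2, so the groups overlapped. Apoc2 averaged 13602.1 ± 3470.5 in nulls and 18591.1 ± 2783.2 in controls (SD, n = 3 each), a log2 change of -0.47 (SE 0.21, 95% confidence interval -0.95 to 0.0017, adjusted p = 0.291, limma). Without null replicate 3, the lowest mouse, the change was -0.26, and without control replicate 2 it was -0.57.

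Apoe, a ligand of lipoprotein receptors that macrophages also make, had 3196.8, 3054.7 and 3244.2 in null replicates 1 to 3, against 3480.8, 5018.9 and 3604.3 in control replicates 1 to 3. The nulls lay close together, with a coefficient of variation of 3.12%, below all controls, and control replicate 2 was again the high mouse. Apoe averaged 3165.2 ± 98.6 in nulls and 4034.7 ± 854.6 in controls (SD, n = 3 each), a log2 change of -0.33 (SE 0.15, 95% confidence interval -0.69 to 0.03, adjusted p = 0.324, limma). Without control replicate 2 it was -0.16 (adjusted p = 0.465). A second Apoe probe set was dim, between 12.8 and 27.8 in nulls and between 9.0 and 27.7 in controls.

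The other members were too dim to be tested. Apoc1, a small apolipoprotein that restrains lipoprotein lipase and receptor binding, had 94.3, 128.4 and 117.5 in nulls, against 92.4, 107.9 and 108.2 in controls, and exceeded the level of 109.7 in 2 of 6 arrays. The brighter probe set of Apoa2, which the liver makes as a component of high density lipoprotein, had 54.0, 104.0 and 69.9 in nulls, against 60.3, 106.4 and 64.8 in controls. The groups overlapped in both genes. The second Apoa2 probe set lay between 12.6 and 22.6 in nulls and between 16.3 and 18.2 in controls.

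**Figure D2:**
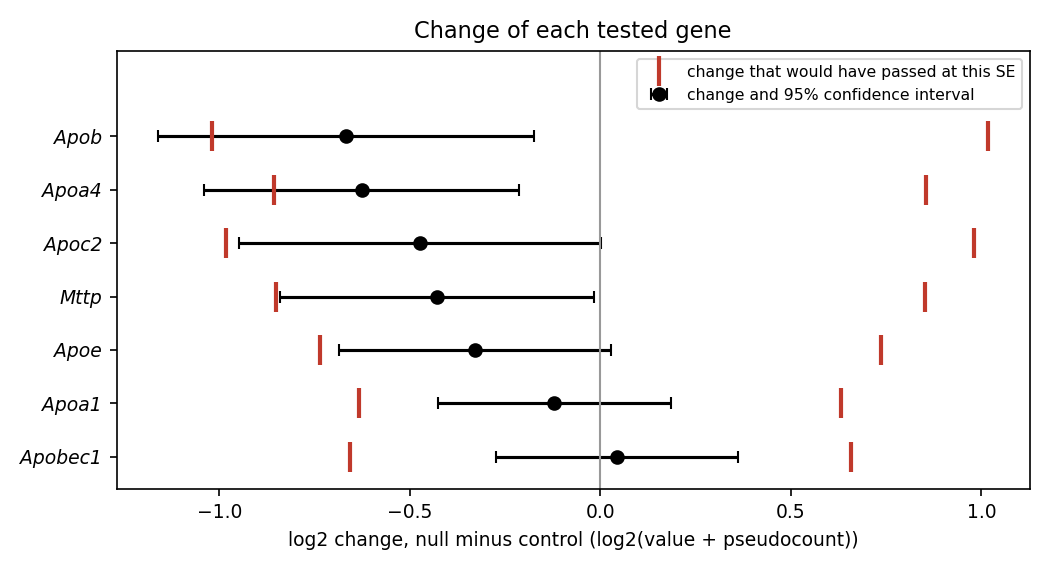
Log2 change of the 7 tested genes, null minus control, with 95% confidence intervals (black, n = 3 mice per group) and the change of either sign that would have passed an adjusted p of 0.05 at each gene's SE (red ticks). The intervals of Apob, Apoa4 and Mttp lie below 0, no point reaches its red tick, and Apoa1 and Apobec1 lie nearest to 0, at -0.12 and 0.04.

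The genes did not follow the mice in 1 way. As a percentage of the control mean, null replicate 3 had 49.9% for Apoa4, 53.0% for Apoc2, 51.6% for Apob and 81.0% for Apoa1, and it was the lowest of the 6 mice in each of these 4 genes. Null replicate 1 had 68.8% for Apoa4 and 76.8% for Apoc2, but 87.3% for Apob and 100.2% for Apoa1. Null replicate 2 had 78.1% for Apoa4 and 89.8% for Apoc2, but 54.1% for Apob. Apoa4 and Apoc2 thus ordered the 3 nulls alike, and Apob ordered them differently. For Mttp and Apoe the 3 nulls were level, at 71.7% to 74.2% and at 75.7% to 80.4% of the control mean, and the spread was among controls, where control replicate 2 had 130.6% and 124.4%.

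**Figure D3:**
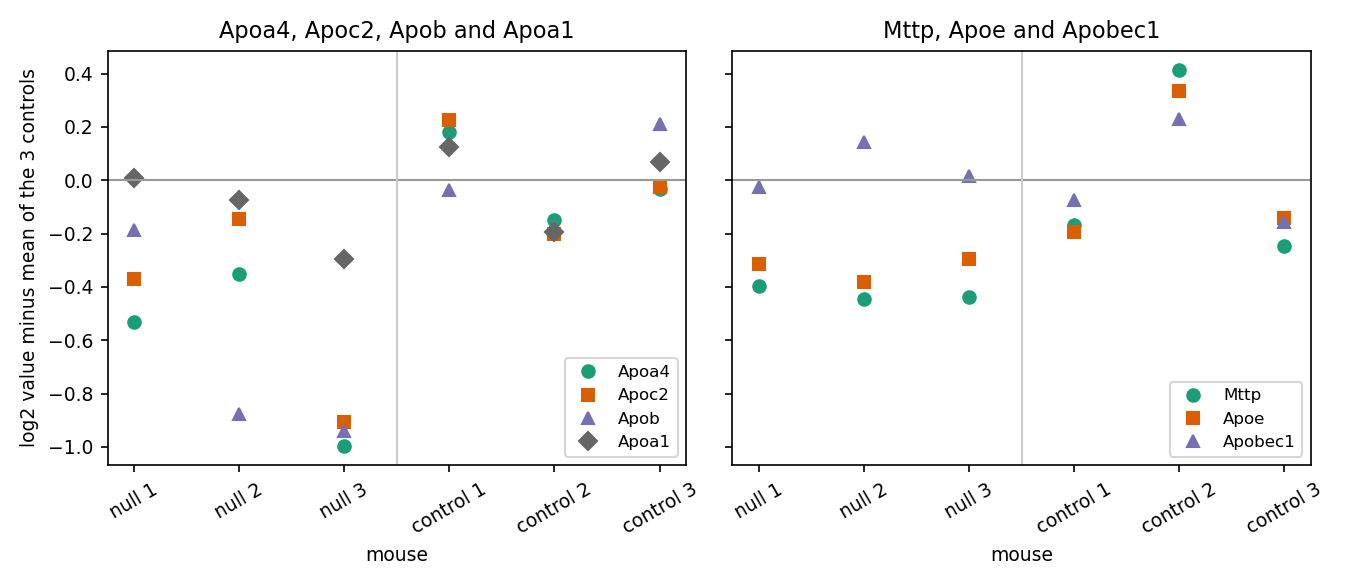
Log2 value of each gene in each mouse minus the mean of the 3 controls, nulls left and controls right of the grey line. Apoa4, Apoc2 and Apob reach their lowest point in null replicate 3 (left panel), whereas Mttp and Apoe are level across nulls and highest in control replicate 2 (right panel).

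The genes with the most similar pattern over the 6 arrays were ranked by the root mean square difference of log2 values, after each gene's own mean was subtracted, among 5716 other genes with a tested probe set. For Apoa4 the 4 nearest were Gpx4, Thra, Crip1 and Apoc2, at 0.084 to 0.088, against a median of 0.44 over all genes. For Mttp they were Dvl1, Cyb5b, Apoe and Numb, at 0.070 to 0.089, against a median of 0.37. For Apob they were Gpcpd1, Plbd1, Invs and Cryl1, at 0.13 to 0.18, against a median of 0.49. Another member was thus among the 4 nearest genes of Apoa4 and of Mttp, while for Apob the nearest other member, Apoa4, stood at rank 165. All the arrays compared share the 2 groups, so that any genes lower in nulls come out alike to some degree. Mttp and its 4 nearest genes were each highest in control replicate 2, so their likeness rests in part on that 1 mouse.

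Differences between 2 members on the same array are unaffected by the scaling of arrays, apart from the pseudocount, and 4 of them were chosen after the values were seen. Apoa1, Apoc3 and Apoa4 are consecutive protein-coding genes on chromosome 9, followed by Apoa5, and Apoc2, Apoc4, Apoc1 and Apoe are consecutive on chromosome 7. Relative to the control mean, the log2 difference of Apoa4 minus Apoa1 was -0.54, -0.27 and -0.70 in null replicates 1 to 3, against 0.06, 0.05 and -0.10 in control replicates 1 to 3. All nulls lay below all controls, with a mean of -0.51 ± 0.22 in nulls (SD, n = 3) (two-sided exact permutation p = 0.1, the smallest that 3 mice against 3 allow, adjusted p = 0.4 over the 4 differences). The other 3 differences overlapped between the groups. Apobec1 minus Apob averaged 0.71 ± 0.48 in nulls (SD, n = 3, exact permutation p = 0.2, adjusted p = 0.4), Mttp minus Apob 0.24 ± 0.39 (exact permutation p = 0.7) and Apoc2 minus Apoe -0.14 ± 0.43 (exact permutation p = 0.7).

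The bases before the start sites of Apoa4 and its neighbour Apoa1, with fitted log2 changes of -0.63 and -0.12, are printed with those of Apob, the gene of the largest fitted change, and Apobec1, whose change was nearest to 0. Each line holds 250 bases upstream of a RefSeq transcript start on build GRCm38.p6, 5′ to 3′ on the strand of the gene. Capitals mark the letters CAAAGTNCA, a motif of the nuclear receptor HNF4, or TATAAA, the letters of a TATA box, in the printed direction.
Apoa4, chr9:46240594-46240843, plus strand: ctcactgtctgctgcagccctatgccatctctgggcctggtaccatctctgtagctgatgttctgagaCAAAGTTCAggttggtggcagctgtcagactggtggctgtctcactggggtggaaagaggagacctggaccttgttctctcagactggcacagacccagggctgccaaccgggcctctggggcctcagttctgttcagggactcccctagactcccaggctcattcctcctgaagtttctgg
Apoa1, chr9:46228380-46228629, plus strand: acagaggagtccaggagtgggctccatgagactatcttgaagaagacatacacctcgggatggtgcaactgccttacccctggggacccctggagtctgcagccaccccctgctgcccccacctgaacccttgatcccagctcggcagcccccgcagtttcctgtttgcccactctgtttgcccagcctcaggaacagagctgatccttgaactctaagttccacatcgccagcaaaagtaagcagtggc
Apob, chr12:7977427-7977676, plus strand: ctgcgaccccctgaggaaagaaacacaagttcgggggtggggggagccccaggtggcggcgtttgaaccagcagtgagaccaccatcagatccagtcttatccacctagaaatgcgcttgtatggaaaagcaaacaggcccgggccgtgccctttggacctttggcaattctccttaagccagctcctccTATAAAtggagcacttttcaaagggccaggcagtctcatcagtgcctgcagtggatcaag
Apobec1, chr6:122602445-122602694, minus strand: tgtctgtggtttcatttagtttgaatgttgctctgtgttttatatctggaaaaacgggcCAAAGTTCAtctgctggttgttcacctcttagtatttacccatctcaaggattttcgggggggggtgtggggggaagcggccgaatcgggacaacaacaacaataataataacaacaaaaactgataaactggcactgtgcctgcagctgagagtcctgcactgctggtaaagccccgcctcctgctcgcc

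The RefSeq promoter table held 8 of the 10 genes, with 11 windows of 300 bases (250 before and 50 after a start). Apoc1 and Apoc3 had no entry. Searched on both strands, CAAAGTNCA was in the windows of Apoa4, from 182 to 174 bases upstream, and Apobec1, from 191 to 183 bases upstream, 2 of 8 genes. It was in 1.43% of 32544 distinct promoter windows of the mouse genome. So the motif was in Apoa4, with a log2 change of -0.63, and in Apobec1, with 0.04, and its letters were not in the windows of Apob or Mttp. CAAAGGTCA and the perfect repeat of AGGTCA with 1 base between, sites also bound by nuclear receptors, were in 0 of 8 genes, and in 0.482% and 0.04% of all windows. TATAAA was in the windows of 4 genes (Apoa2, Apob, Apobec1 and Apoe, that of Apobec1 on the opposite strand) and in 13.6% of all windows, and its 2 matches in Apoe overlapped. It lay from 60 to 55 bases upstream in Apob, from 100 to 91 in Apoe and from 212 to 207 in Apoa2 and Apobec1. Whether any of these works as a TATA box was not tested. A match of letters is a description and not evidence of binding.

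Around these genes, 6 lists of other lipoprotein genes had 56 distinct genes tested, of which 2 fell and 0 rose, that is 3.6%, close to the 3.0% of all tested probe sets. The lists were chosen with earlier results of these data known, and 1 probe set, the brightest tested, stood for each gene. The median log2 change of the 56 was -0.07.

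Ppara, the fatty acid sensing nuclear receptor that controls genes of fat handling, was the 1 of 19 transcription factors that fell, and 0 rose. It had 476.1, 505.9 and 621.7 in null replicates 1 to 3, against 1144.0, 1686.1 and 1133.8 in control replicates 1 to 3, a log2 change of -1.27 (SE 0.19, adjusted p = 0.0151, limma). The call was lost without null replicate 1 and in males only. Hnf4a, a nuclear receptor that drives many apolipoprotein genes, had 897.6, 668.0 and 1878.2 in nulls, against 523.0, 1478.7 and 638.8 in controls, with a spread within each group larger than the difference (adjusted p = 0.707). The liver X receptor Nr1h3 averaged 593.1 in nulls and 890.6 in controls (adjusted p = 0.0805), and the sterol response factor Srebf1 averaged 1211.2 in nulls and 1863.0 in controls (adjusted p = 0.0939). The median log2 change of the 19 was -0.05.

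Of 9 lipoprotein receptors, lipases and sterol transporters, Scarb1, a receptor of high density lipoprotein, fell and 0 rose, with a median of -0.46. Scarb1 had 619.9, 627.2 and 436.8 in nulls, against 978.9, 1055.5 and 1058.4 in controls, and it did not pass without any 1 of the 3 controls, null replicate 1 or null replicate 3 (adjusted p = 0.0312 with all 6 mice, limma). Abca1, the exporter that lipidates apolipoprotein A-I, had 282.4, 492.3 and 155.8 in nulls, against 1014.7, 752.6 and 1537.3 in controls, but did not pass (log2 change -1.87, SE 0.40, adjusted p = 0.0552, limma). It passed with sex as a covariate (adjusted p = 0.0128), in males only, without null replicate 2 and with the filter at 288.7. All nulls lay below all controls in both genes.

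None of 16 genes of the Mttp partner, endoplasmic reticulum export and lipid droplet list passed (median -0.06). Surf4, a cargo receptor, averaged 6578.5 ± 173.4 in nulls and 6076.4 ± 488.8 in controls, and Hspa5, the chaperone BiP, 5984.8 ± 1114.3 in nulls and 6673.7 ± 1618.6 in controls. P4hb, the protein disulphide isomerase that forms a complex with the Mttp product, averaged 1451.8 in nulls and 1157.7 in controls (adjusted p = 0.244). Sar1b, the small GTPase of chylomicron export from the endoplasmic reticulum, had 1592.5, 1666.4 and 1596.3 in nulls, against 2140.4, 2192.0 and 2356.0 in controls, without overlap (log2 change -0.46, SE 0.10, adjusted p = 0.0612, limma, and 0.0459 with the filter at 288.7). Plin2, the lipid droplet coat protein, averaged 890.9 in nulls and 1598.4 in controls (adjusted p = 0.0939). None of 7 genes of triglyceride synthesis passed either, with a median of -0.36. Dgat1, which makes triglyceride, averaged 4866.6 ± 725.9 in nulls and 6742.9 ± 390.5 in controls (adjusted p = 0.118), and the acyl-CoA synthetase Acsl5 averaged 6903.9 ± 933.5 in nulls and 9039.9 ± 761.7 in controls (adjusted p = 0.184).

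Of the other apolipoproteins, 2 were bright enough to be tested and 0 passed. Saa2, a serum amyloid A of high density lipoprotein and of the acute phase, had 3602.9, 3102.1 and 1629.9 in nulls, against 385.7, 154.6 and 1127.5 in controls, without overlap (log2 change 2.65, SE 0.63, adjusted p = 0.0756, limma). It passed with sex as a covariate (adjusted p = 0.0449), in males only (0.0371) and without control replicate 3 (0.0186). Clu averaged 281.4 in nulls and 351.5 in controls (adjusted p = 0.594). Apoa5, Apoc4, Apod, Apof, Apoh and Apom were on the array but too dim to be tested. Of the proteins that work with the Apobec1 product on RNA, 3 were tested and 0 passed. Hnrnpab averaged 828.0 in nulls and 696.0 in controls (adjusted p = 0.514), and Dnajb11 757.2 in nulls and 703.6 in controls (adjusted p = 0.808).

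**Figure D4:**
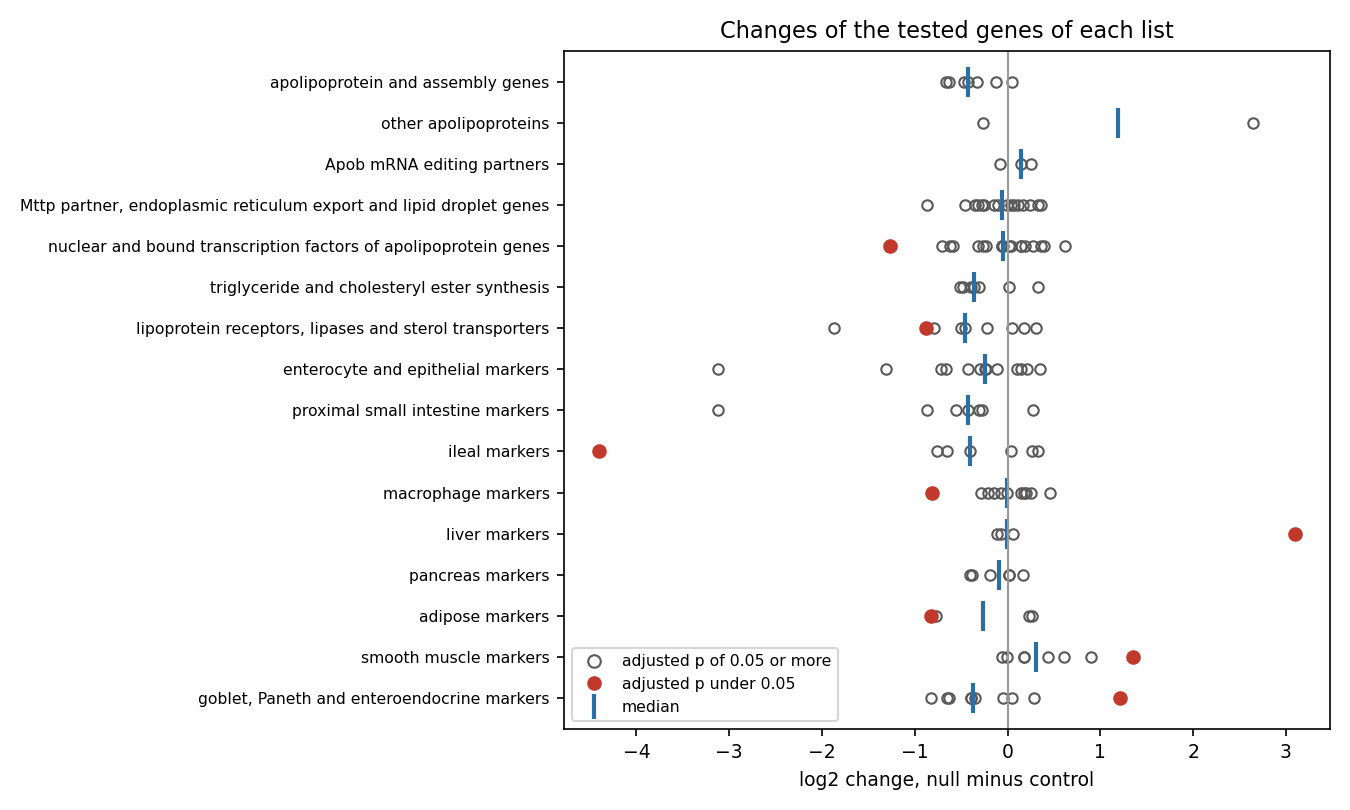
Log2 change, null minus control, of every tested gene in the 10-gene group (top row) and in 15 lists of other genes, with genes past an adjusted p of 0.05 filled in red and the median of each list as a blue bar. The 7 tested apolipoprotein and assembly genes lie between -0.67 and 0.04 and none is filled.

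Markers of cell types and gut regions were also compared between the groups, and some of them passed. In whole tissue, fewer cells of a type and less RNA per cell cannot be told apart. The sums given here and below add intensities of different probe sets. They weight each gene by the brightness of its probe set, so a few bright genes can set them. The summed level of 13 enterocyte and epithelial markers was 79344 to 110221 in nulls and 104505 to 139631 in controls, lowest in null replicate 3, and 0 of the 13 passed. Fabp1 and Krt20, the brightest of them, averaged 15047.9 ± 3729.5 and 14359.8 ± 1176.4 in nulls, against 19901.6 ± 2700.2 and 15585.2 ± 1411.9 in controls. The 7 proximal markers summed to 24844 to 37298 in nulls and 48759 to 55623 in controls, without overlap and again lowest in null replicate 3, although 0 passed. Among them Slc5a1, the glucose carrier, averaged 7691.9 ± 515.1 in nulls and 9626.1 ± 1835.4 in controls, and lactase, Lct, had 714.5, 4815.5 and 569.1 in nulls, against 11317.3, 10927.9 and 10865.6 in controls (adjusted p = 0.0606, limma). Lct, which is in both lists, passed with sex as a covariate (adjusted p = 0.0337), in males only (0.000521) and without null replicate 2 (8.1e-05), where Fabp2, a fatty acid binding protein of enterocytes, passed too (0.0259). With all 6 mice Fabp2 averaged 7990.7 ± 4065.4 in nulls and 18084.9 ± 1619.9 in controls, without overlap (adjusted p = 0.0939, limma). The 7 ileal markers summed to 19300 to 23392 in nulls, against 31078, 17284 and 32064 in control replicates 1 to 3, and 1 of them fell, Cubn, the cubilin receptor, at 196.3 ± 143.4 in nulls and 3851.6 ± 777.2 in controls. Muc13 had 14804.6, 16666.6 and 14348.0 in nulls, against 13985.2, 9541.5 and 13518.7 in controls. It was higher in nulls without overlap and made up most of each null sum. Fabp6 overlapped between the groups with all 6 mice (log2 change -0.41, 95% confidence interval -3.74 to 2.93, adjusted p = 0.915, limma). Without control replicate 2 its log2 change was -2.38. That mouse was singled out by its Fabp6 value, so leaving it out is no test of Fabp6. The part of these markers in the apolipoprotein values was not tested.

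Of 11 macrophage markers, 1 fell and 0 rose, and they summed to 15843 to 17170 in nulls and 17194 to 20458 in controls. The marker that fell was Lyz2, the macrophage lysozyme, at 3687.4 ± 216.3 in nulls and 6598.0 ± 1341.7 in controls. The other 10 summed to 13705, 12800 and 11946 in null replicates 1 to 3, against 12799, 12143 and 13016 in control replicates 1 to 3, with overlap. Of these 10, 3 were higher in nulls without overlap, Cd14 (1139.0 ± 29.2 in nulls, 831.7 ± 109.1 in controls, adjusted p = 0.122, limma), Cd68 and C1qc, and 1 was lower, Fcgr1. Of all tested probe sets, 13.1% were higher and 10.8% lower in nulls without overlap. Csf1r averaged 984.5 in nulls and 1025.4 in controls, and Adgre1, Itgam and Mrc1 were too dim to be tested. Their part in the Apoe value was not tested. Liver is the other main source of apolipoproteins, and its markers Alb, Fga, Fgb, Fgg, Ahsg and F2 were at 103.0 or less in nulls and 84.6 or less in controls, all too dim to be tested. Of 4 liver markers tested, 1 rose, Tat, with 818.4 ± 600.8 in nulls, against 82.4 ± 54.9 in controls. The 4 summed to 9762 to 10728 in nulls and 9369 to 10731 in controls. Most of each sum was Cps1, with 8900.3, 9269.0 and 8722.6 in nulls, against 10145.3, 8868.4 and 9312.3 in controls. The sum thus says little about the other liver markers. The 6 pancreas markers summed to 3859 to 5564 in nulls and 4689 to 4940 in controls and 0 passed, with Clps at 2230.7 in nulls and 1951.6 in controls and Ctrb1 at 1081.3 in nulls and 1199.2 in controls. Of 4 adipose markers Lipe fell (293.0 ± 16.1 in nulls, 531.2 ± 82.3 in controls), and they summed to 1575 to 1715 in nulls and 1660 to 1910 in controls. Of 8 smooth muscle markers Actg2 rose (7350.7 ± 1275.3 in nulls, 2904.4 ± 708.7 in controls), and they summed to 22472 to 27053 in nulls and 14759 to 20777 in controls, without overlap. Of the 8, 6 had a change above 0 and 2 below 0, with a median log2 change of 0.31. Of 10 goblet, Paneth and enteroendocrine markers Mptx1 rose (2919.5 ± 642.9 in nulls, 1272.8 ± 372.2 in controls), and they summed to 68827 to 70649 in nulls and 67132 to 81410 in controls. A change below 0 was seen in 7 of the 10, and their median log2 change was -0.37. The adjusted p-values of these calls (limma) were 0.00388 for Cubn, 0.0151 for Actg2, 0.0312 for Lipe, 0.0372 for Tat, 0.0396 for Mptx1 and 0.0437 for Lyz2. Cubn passed with any 1 mouse left out. Actg2 was lost without null replicate 1 or null replicate 3, Lyz2 without any 1 mouse other than control replicate 2, Lipe and Tat without any 1 other than control replicate 3, and Mptx1 without any 1 other than control replicate 1. In males only Cubn alone of the 6 passed. With sex as a covariate Lyz2 (adjusted p = 0.0551) and Mptx1 (0.0524) did not pass, and with robust variance Tat (0.055) did not. Over all 15 lists 8 of 122 genes passed, 6.6%, against 3.0% of all tested probe sets.

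The effect of genotype was also compared between the sexes, with 1 female per group. Of 7601 probe sets, 0 passed the interaction of genotype and sex (limma, 0.0%, and 236, or 3.1%, at an unadjusted p under 0.05). The spread comes from the males alone, so this does not show that the sexes are alike. Its estimates, the female effect minus the male effect on the log2 scale, ran from -0.63 for Apob to 0.53 for Apoc2, each with an adjusted p = 0.9998.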

How the data were processed

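Per the labels, total RNA of the whole small intestine was prepared with TRIzol and each array carries 1 mouse. The values are deposited probe set intensities on a linear scale, 12488 per array. The 66 control probe sets were set aside. The software behind the intensity values, and its background and scaling steps, are not given in the sources used here. The 2%-trimmed mean of every array is 500.3, so the deposited intensity values had been scaled. Ratios of 3' to 5' control probe sets were 1.12 to 1.20 for actin and 0.749 to 0.826 for Gapdh. The number of arrays limits the precision.

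Genes were named from the platform annotation given here, from the 10833 probe sets with 1 symbol; 396 had several and 1193 none. Of the 10833, 10817 had an Entrez identifier in the RefSeq table (GRCm38.p6), which changed 0 symbols. Values were used as log2(value + 11.7), where 11.7 is the 10th percentile. Probe sets above 109.7, the 40th percentile, in at least 3 of 6 arrays were tested, 7601 in all. Null was compared with control by limma 3.58.1 in R 4.3.3 (eBayes with a variance trend, two-sided, Benjamini-Hochberg over all probe sets tested, threshold 0.05). No pairing or batch is stated in the labels and none was used; the title codes of the samples were not used. Replicate numbers follow the order of the samples and pair nothing.

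The members and lists were chosen with earlier results of these data known. The rule for other named genes was up to 3 genes past the threshold with the largest change in each list, or else the 2 brightest, and the 4 nearest genes by pattern. Hnf4a, Hnf4g, Nr1h3, Srebf1, Gata4, Gata6, Krt8, Krt19, Abca1, P4hb, Sar1b, Plin2, Fabp6, Fgf15, Muc13, Slc51a, Mep1a, Nr1h4, Lct, Fabp2, Csf1r, Cd14, Cd68, C1qc, Fcgr1, Cps1, Cnn1, Chga and Chgb, and the dim genes, were named after their values were seen. Tested on simulated data for null against control (10 sets, 7601 probe sets, 200 of them changed), the fit called 55.9% of the 2-fold and 89.8% of the 4-fold changes, and 4.0% of its calls were false. Alternatives were quantile normalization, equal medians, a pseudocount of 3 or 48, a filter at 288.7 or none, other variance models, sex as a covariate, males only, every probe set of a gene, no probe sets with a letter before _at, and leaving out each mouse.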

Additional observations from a re-analysis of the deposited data

How the results depend on the processing

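With 3 mice per group and SEs of 0.13 to 0.21, log2 changes of at least 0.63 to 1.02 in size were needed to pass. None of the 7 tested genes passed under any of the 10 alternative settings or with any of the 6 mice left out. Every probe set of a gene, or only those without a letter before _at, also gave 0 and 0. The former added no tested probe set of these genes. The latter left out Apobec1, whose only probe set has such a letter. Over the 10 settings the lowest adjusted p was 0.054, for Apoa4 with quantile normalization. Log2 changes without 1 mouse ran from -0.76 to -0.44 for Apoa4, -0.91 to -0.53 for Apob, -0.55 to -0.22 for Mttp, -0.64 to -0.26 for Apoc2, -0.43 to -0.16 for Apoe, -0.22 to -0.03 for Apoa1 and -0.03 to 0.16 for Apobec1. Apobec1 was reversed in males only (-0.083) and without control replicate 3 (-0.034) or null replicate 2 (-0.0052), and the cause was not tested.

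Over all probe sets, 49 rose and 92 fell without a variance trend and 50 and 85 in males only, against 86 and 142. Without 1 mouse, 17 to 68 rose and 35 to 117 fell. Of the 122 genes of the 15 lists, 3 rose and 5 fell (6.6%). These counts were 1 and 3 with no filter, 1 and 2 without a variance trend, 1 and 3 in males only, and 4 and 8 with the filter at the 60th percentile. Without 1 mouse 0 to 3 rose and 1 to 8 fell. No filter ended the calls of Lyz2, Tat, Lipe and Mptx1, no variance trend those of the same 4 and Scarb1, and equal medians that of Lyz2. With the filter at the 60th percentile Cnn1 passed, higher in nulls (log2 change 0.90, adjusted p = 0.0448, limma). Chga passed there too, lower in nulls (-0.65, 0.0446), as it did with quantile normalization (-0.68, 0.0492). Without null replicate 2, Chga (-0.77, 0.0399) and Chgb (-0.82, 0.0399) passed, both lower in nulls (log2 change, then adjusted p, limma). The share of promoters with CAAAGTNCA was 1.21% with upstream bases alone and that with TATAAA 12.3%. No paired analysis was run, since the labels state no pairing. Sex, which both groups share, was fitted as a covariate, and the sample title codes, whose meaning is not given, were not used.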
